A study of Mus musculus with 2 samples.

Results

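The 10 genes described here are 3 FoxO transcription factors (*Foxo1*, *Foxo3*, *Foxo4*), the transcription factor *Klf15* and 6 ubiquitin ligase genes of muscle atrophy (*Trim63*, *Fbxo32*, *Fbxo30*, *Fbxo21*, *Fbxo31*, *Cblb*). They were found by symbol, and all 10 were among the 32285 genes of the deposited tables. The data are single-nucleus RNA sequencing of tibialis anterior (TA) muscle, in which mice with a muscle-specific *Bcl6* deletion (M-*Bcl6* KO) were compared with their controls (M-*Bcl6* WT) to find transcriptional changes in muscle without the repressor BCL6. Mice of the first group were *Myf6*-Cre+ *Bcl6* fl/fl and those of the second *Myf6*-Cre+ *Bcl6* wt/wt littermates, so both carried a Cre under control of *Myf6*, a myogenic factor gene active in differentiated muscle fibres. All were C57BL/6 males, 6 weeks old. Nuclei from the right and left TA of 2 mice per genotype were stained with 7-AAD, sorted and pooled into 1 library per genotype. Each genotype is therefore 1 library, and genotype, mice, sort and library preparation cannot be told apart in the comparison of the libraries.

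FoxO factors drive genes of protein breakdown when they are in the nucleus, and insulin and IGF-1 signalling through AKT phosphorylates them and keeps them out of it. The best known of their targets in wasting muscle encode MuRF1 (*Trim63*), a RING-type ligase that marks thick filament proteins, and atrogin-1 (*Fbxo32*), an F-box subunit of an SCF-type ligase. KLF15 is a glucocorticoid-induced factor that also acts on these ligase genes and on amino acid catabolism, MUSA1 (*Fbxo30*), SMART (*Fbxo21*) and *Fbxo31* are further F-box genes, and CBL-B (*Cblb*) marks the insulin receptor substrate IRS1 for breakdown.

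The promoters of *Trim63*, *Klf15* and *Fbxo31* are shown because the letters of known elements differed between them and the levels of all 3 differed between fibre types. Each line holds the 250 bases before the start of the gene, 5′ to 3′ on the strand of the gene, from RefSeq (GRCm38.p6), which gave promoters for 8 of the 10 genes. The set used held no promoter of *Fbxo32* or *Foxo4*, so these 2 genes were not searched for any element. Capitals mark matches to elements searched on both strands. In *Trim63* (chr4:134314870-134315119, plus strand) they are a glucocorticoid response element (GAACA and TGTTC with any 3 bases between them) that begins 208 bases before the start and, after 1 further base, a FoxO element (TGTTTAC) that begins 194 bases before it. In *Klf15* (chr6:90462326-90462575, plus strand) they are 2 E-boxes (CACGTG). *Fbxo31* (chr8:121578807-121579056, minus strand) held no match.
Trim63: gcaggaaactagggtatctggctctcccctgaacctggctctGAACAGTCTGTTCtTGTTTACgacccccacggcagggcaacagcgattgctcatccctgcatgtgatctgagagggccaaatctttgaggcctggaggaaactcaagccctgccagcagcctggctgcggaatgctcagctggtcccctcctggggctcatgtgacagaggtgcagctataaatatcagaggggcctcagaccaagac
Klf15: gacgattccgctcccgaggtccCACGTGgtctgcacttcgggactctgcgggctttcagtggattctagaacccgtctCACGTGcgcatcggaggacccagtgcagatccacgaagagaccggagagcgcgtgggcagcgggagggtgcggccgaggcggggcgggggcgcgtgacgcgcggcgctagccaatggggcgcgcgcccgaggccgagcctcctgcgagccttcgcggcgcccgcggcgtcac
Fbxo31: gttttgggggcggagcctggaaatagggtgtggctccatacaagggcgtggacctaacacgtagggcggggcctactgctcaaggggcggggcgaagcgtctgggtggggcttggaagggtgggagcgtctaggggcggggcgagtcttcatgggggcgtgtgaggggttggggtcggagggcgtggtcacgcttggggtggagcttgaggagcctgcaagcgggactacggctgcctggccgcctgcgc
Of 32851 promoters of the same length, 0.0396% held the glucocorticoid response element, 3.17% the FoxO element, 6.02% the E-box and 0.429% at least 2 E-boxes. The element TTCNNNGAA, bound by BCL6 and STAT factors, was in 7.02% of all promoters and in 0 of the 8. Among the 8, *Trim63* alone held the FoxO and glucocorticoid elements and *Klf15* alone the E-box, a motif added after the sequences had been read.

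The libraries held 11974138 (WT) and 12026013 (KO) UMIs in 3798 and 4096 barcodes, of which 3674 and 3944 nuclei were kept, and they shared 6 barcode sequences. The targeted gene went against the labels: in myonuclei *Bcl6* stood at 167 UMIs per 1000000 UMIs (CPM) where the label is WT and at 502 where it is KO, a log2 ratio of 1.59 (95% counting interval 1.503 to 1.67). The loxP sites flank exons 7 to 9, and a count for the whole gene cannot show whether those exons were lost. The genotypes are therefore named only as labels from here on. Among 2407 and 3088 myonuclei, those whose main *Myh* gene was *Myh4* (type IIb) numbered 701 in the library labelled WT and 612 in that labelled KO, those with *Myh1* (IIx) 1155 and 1175, those with *Myh2* (IIa) 236 and 482, and those without a main *Myh* gene 313 and 800. The main *Myh* gene is the one with the most UMIs in a nucleus, so these genes define the groups and are no result.

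*Trim63* (ENSMUSG00000028834, chr4:134315120-134329629, GRCm38) followed the order IIb, IIx, IIa in both libraries. In the library labelled WT its level was 4746 CPM in IIb, 1977 in IIx and 1043 in IIa myonuclei. In the library labelled KO the same levels were 3352, 2327 and 1143 CPM. The lowest IIb value was above the highest IIx value, and the lowest IIx value above the highest IIa value, so no pooled values overlapped. Within clusters of nuclei the order was not always kept. In cluster 2 *Trim63* was higher in IIx (8010 and 6593 CPM, on 28 and 36 nuclei) than in IIb (4058 and 2692). In cluster 1 it followed the order, at 1436, 610 and 541 CPM (WT label) and 1308, 634 and 394 (KO label). In cluster 4 IIb (4644 and 5813 CPM) was above IIx (3385 and 5455). Between IIa and IIb the log2 difference was -1.91 ± 0.19 (SE), a level 3.75-fold lower in IIa (edgeR quasi-likelihood test on 6 sums, adjusted p = 1.06e-05). Between IIx and IIb it was -0.90 ± 0.19 (adjusted p = 0.00406), and between IIa and IIx it was -1.01 ± 0.19 (adjusted p = 0.0177). The step from IIb to IIx was wider in the library labelled WT (log2 -1.26) than in that labelled KO (-0.53). Myonuclei without a main *Myh* gene held 4998 and 5674 CPM of *Trim63*, above the IIb level of the same library.

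*Fbxo32* (ENSMUSG00000022358, chr15:58175879-58214932, minus strand) followed the same order within each library, at different levels. In the library labelled WT it stood at 3432 CPM in IIb, 2128 in IIx and 924 in IIa myonuclei. In the library labelled KO it stood at 1811, 1325 and 704 CPM. The pooled IIb level of the library labelled KO was below the pooled IIx level of the library labelled WT. The pooled groups thus overlapped between libraries and not within one. In cluster 2 *Fbxo32* was also higher in IIx (4986 and 3310 CPM) than in IIb (2913 and 1435). In cluster 1 it followed the order in both libraries. In cluster 4 IIb was above IIx in the library labelled WT (3657 against 3129 CPM) and below it in the other (1471 against 1963). With the library as a block, IIa was 3.14-fold lower than IIb (log2 -1.65 ± 0.17, adjusted p = 5.86e-06) and 2.12-fold lower than IIx (-1.08 ± 0.16, adjusted p = 0.00345), and IIx was lower than IIb by a log2 of -0.57 ± 0.16 (adjusted p = 0.0228). Myonuclei without a main *Myh* gene held 3520 and 2850 CPM.

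**Figure D1:**
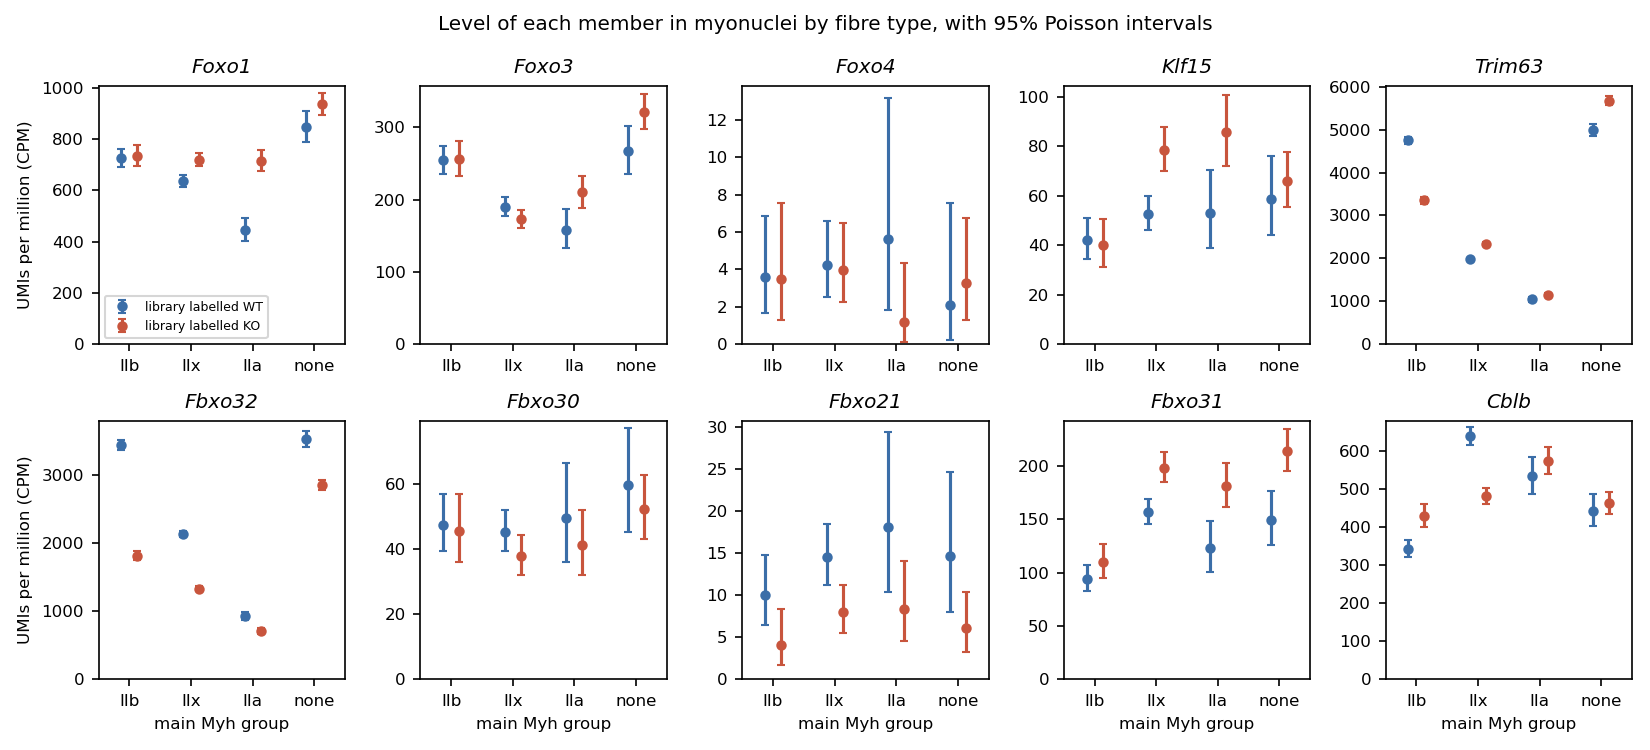
Level of each of the 10 genes in CPM (vertical axes, from 0) by main *Myh* group for the library labelled WT (blue) and that labelled KO (red), with 95% Poisson intervals for counting error. *Trim63* and *Fbxo32* step down from IIb to IIx to IIa in both libraries, while *Fbxo31* is lowest in IIb in both.

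*Fbxo31* ran the other way. This gene (ENSMUSG00000052934, chr8:121549440-121578806, minus strand) encodes an F-box protein known for marking cyclin D1. Its level was 94.5 CPM in IIb, 157 in IIx and 123 in IIa myonuclei of the library labelled WT, and 110, 199 and 181 CPM in that labelled KO. Every IIx and IIa value was above both IIb values. IIx exceeded IIb by a log2 of 0.80 ± 0.15 (adjusted p = 0.00144) and IIa exceeded IIb by 0.54 ± 0.16 (adjusted p = 0.0198).

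*Cblb* (ENSMUSG00000022637, chr16:52031225-52208048) was also higher outside IIb. It stood at 344 CPM in IIb, 640 in IIx and 536 in IIa of the library labelled WT, and at 430, 482 and 575 CPM in the library labelled KO. The differences from IIb were 0.55 ± 0.17 for IIx (adjusted p = 0.0355) and 0.51 ± 0.17 for IIa (adjusted p = 0.0459). The step from IIb to IIx rested mostly on the library labelled WT, with a log2 of 0.90 there against 0.17 in the other.

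The remaining F-box genes did not pass the test between any fibre types. *Fbxo30* (ENSMUSG00000047648, chr10:11281330-11298052) lay between 37.8 and 49.7 CPM in the 6 fibre type sums, with log2 differences from IIb of -0.15 ± 0.18 in IIx and -0.06 ± 0.20 in IIa. *Fbxo21* (ENSMUSG00000032898, chr5:117976730-118010201) had 25, 65 and 16 UMIs in IIb, IIx and IIa of the library labelled WT and 7, 32 and 14 in the library labelled KO. Its difference from IIb was 0.68 ± 0.32 in IIx (adjusted p = 0.164) and 0.86 ± 0.38 in IIa (adjusted p = 0.12), so a difference of the size seen for *Fbxo31* was not detectable at this depth.

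Among the transcription factors, *Foxo3* was lower and *Klf15* higher outside IIb. *Foxo3* (ENSMUSG00000048756, chr10:42181841-42276755, minus strand) held 254 CPM in IIb, 190 in IIx and 158 in IIa of the library labelled WT, and 257, 173 and 210 CPM in that labelled KO. Both IIb values were above the other 4, and the differences from IIb were -0.48 ± 0.15 in IIx (adjusted p = 0.0385) and -0.48 ± 0.16 in IIa (adjusted p = 0.0407). *Klf15* (ENSMUSG00000030087, chr6:90462576-90475238), whose promoter carries the E-boxes above, held 42.0, 52.6 and 53.0 CPM in IIb, IIx and IIa of the library labelled WT and 39.9, 78.4 and 85.6 in that labelled KO. Its differences from IIb were 0.64 ± 0.20 in IIx (adjusted p = 0.0389) and 0.71 ± 0.22 in IIa (adjusted p = 0.0305), and both IIb values were below the other 4.

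*Foxo1* (ENSMUSG00000044167, chr3:52268336-52353221) did not pass the test between fibre types. It held 725 CPM in IIb, 638 in IIx and 445 in IIa of the library labelled WT, and 734, 719 and 716 CPM in that labelled KO. The low IIa value of the library labelled WT thus had no counterpart in the other library, where the 3 fibre types lay between 716 and 734 CPM. *Foxo4* (ENSMUSG00000042903, chrX:101254528-101260873) had 2 to 19 UMIs in each fibre type sum, under the filter of the fit, and was not tested.

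Of the 9 genes tested, 3 were lower (*Trim63*, *Fbxo32*, *Foxo3*) and 3 higher (*Fbxo31*, *Klf15*, *Cblb*) in IIx than in IIb, where 7.27% and 12.3% of all 9697 genes tested were called in those directions. The same genes were called lower and higher in IIa than in IIb, where 10.7% of all genes were called lower and 14.5% higher. Between IIa and IIx, *Trim63* and *Fbxo32* were called lower and 0 genes of the 9 higher, against 0.619% and 0.866% of all genes. *Trim63* and *Fbxo32* stood at places 211 and 177 from the lowest of the 9697 differences between IIa and IIx. DESeq2 called 3, 2 and 2 of the 9 in the 3 contrasts, and *Trim63* and *Fbxo32* were among them each time. With the library block left out, 0, 2 and 0 were called, the 2 being *Trim63* and *Fbxo32*, and with nuclei of a clearer main *Myh* gene only 3, 4 and 1. *Foxo3*, *Klf15* and *Cblb* were called by neither DESeq2 nor the fit without the block. The share of all genes whose values separated the fibre types without overlap was not counted, so the separations given above are descriptions.

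**Figure D2:**
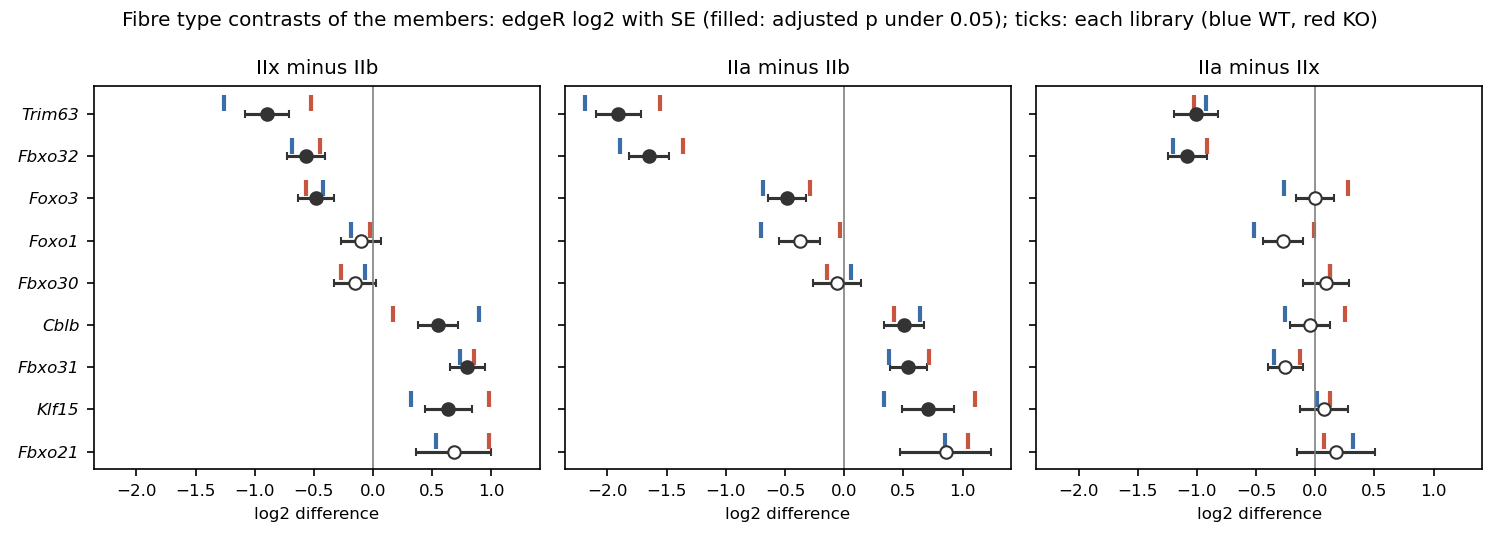
Difference between fibre types for each gene on the log2 scale (horizontal axes) in 3 panels, 1 per contrast, with the edgeR estimate and its SE (circles, filled where the adjusted p was under 0.05) and the value in each library (ticks, blue WT and red KO). *Trim63* and *Fbxo32* lie left of 0 in all 3 panels in both libraries, and *Fbxo31* lies right of 0 in both contrasts with IIb.

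Between the libraries, *Fbxo32* had the lowest ratio of the 8 genes whose UMIs in myonuclei numbered at least 200. Its level over all myonuclei was 2526 CPM in the library labelled WT and 1637 in that labelled KO, 1.54-fold lower, with a log2 ratio of -0.63 (95% counting interval -0.66 to -0.60). The median over all 6976 genes with as many UMIs was -0.15, and *Fbxo32* stood at place 6396 from the highest ratio. By fibre type its ratio was -0.92 in IIb, -0.68 in IIx, -0.39 in IIa and -0.30 in myonuclei without a main *Myh* gene. Within the 15 combinations of fibre type and cluster that held at least 20 nuclei of each library, the interval lay below 0 in 15, with ratios from -1.31 to -0.17. The share of all genes with such intervals was not counted, and the median of all genes was itself below 0. Over all nuclei of cluster 5 the *Fbxo32* ratio was -0.09 beside a median of -0.12, with 52.7% of genes lower. In clusters 0, 1, 2 and 4, 4.35% to 23.1% of genes were lower. With 1 library per genotype the intervals hold counting error alone, and the differences were not tested.

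*Trim63* did not move with *Fbxo32*. Over all myonuclei it stood at 2993 CPM in the library labelled WT and 3034 in that labelled KO (log2 0.02, interval -0.0041 to 0.04). The sum hid opposite ratios by fibre type, -0.50 in IIb (interval -0.55 to -0.46) against 0.24 in IIx (0.19 to 0.28) and 0.13 in IIa (0.02 to 0.25). These ratios in turn differed between clusters of one fibre type. IIb myonuclei of cluster 2, led by *Myh4*, *Mybpc2* and imprinted RNAs such as *Mirg* and *Rian*, had a ratio of -0.59, and those of cluster 5, led by *Ctxn3* and *Actn3*, one of 0.08. Cluster 5 held 26.2% of IIb myonuclei in the library labelled WT and 11.4% in that labelled KO, and its *Trim63* level was 6856 and 8213 CPM. IIa myonuclei of clusters 0 and 1 had ratios of -0.35 and -0.46, below 0 where the pooled IIa ratio was above it. Cluster 4, led by *Nr4a3* and *Nr4a1*, genes induced by activity and stress, had 3863 CPM of *Trim63* in the library labelled WT and 6022 in that labelled KO (0.64, interval 0.58 to 0.70), and 214 and 397 nuclei. Over the 15 combinations the interval lay below 0 in 4 and above 0 in 6.

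**Figure D3:**
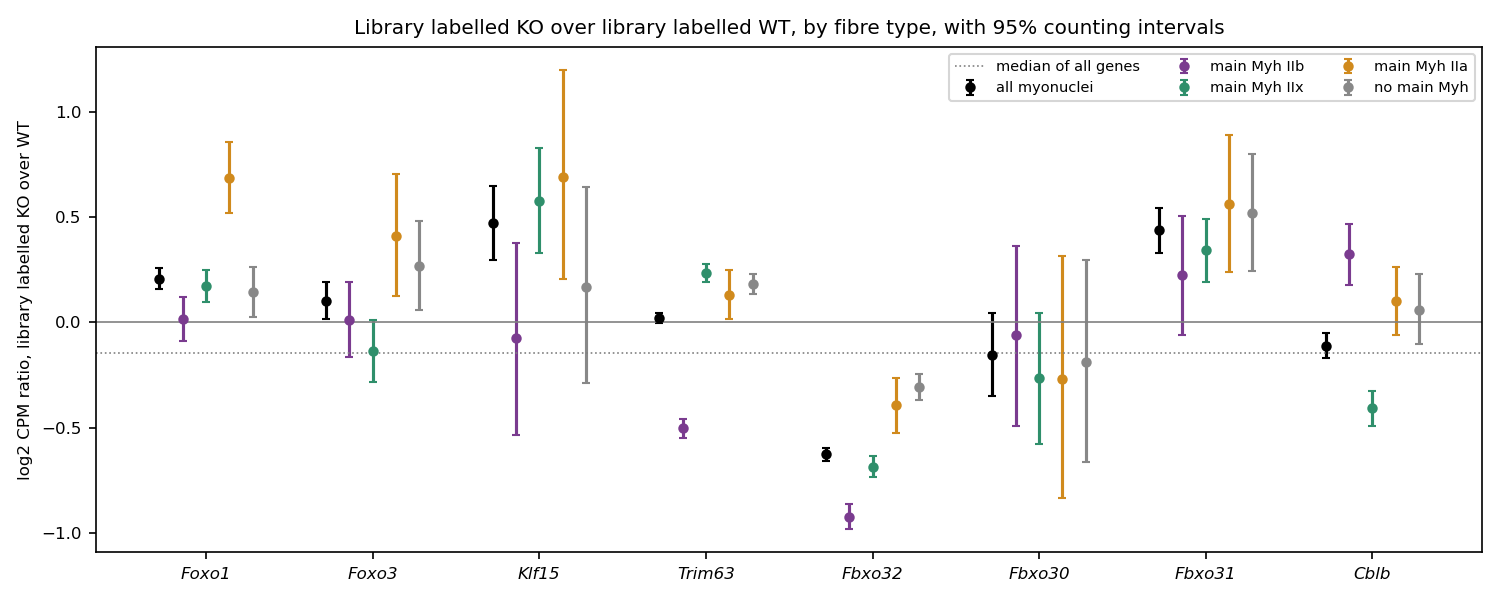
Log2 ratio of CPM, library labelled KO over library labelled WT (vertical axis), for the 8 genes with enough UMIs, over all myonuclei (black) and by main *Myh* group, with 95% counting intervals. The dotted line marks the median of all genes (-0.15). *Fbxo32* lies below 0 in every group and *Fbxo31* above it, while *Trim63* and *Cblb* lie on both sides of 0.

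*Klf15*, *Fbxo31* and *Foxo1* were higher in the library labelled KO by less than the fold of 2 used for calls. *Klf15* stood at 50.3 and 69.7 CPM over all myonuclei (log2 0.47, interval 0.30 to 0.65), with ratios of -0.08 in IIb, 0.58 in IIx and 0.69 in IIa. *Fbxo31* stood at 135 and 183 CPM (0.44, interval 0.33 to 0.54), with ratios of 0.22 in IIb, where the interval held 0 (-0.058 to 0.51), 0.34 in IIx and 0.56 in IIa. Over the 5 clusters in which it passed the minimum of UMIs it ran from -0.05 in cluster 1 on 202 and 245 UMIs to 1.16 in cluster 4 on 99 and 330 UMIs. *Foxo1* stood at 665 and 768 CPM (0.21, interval 0.16 to 0.26), with ratios of 0.02 in IIb, 0.17 in IIx and 0.69 in IIa. Within cluster 1, led by *Myh7* and *Myom3*, the *Foxo1* ratio was 1.01 in IIb, 0.73 in IIx and 0.39 in IIa, and within cluster 0, led by *Ppara* and *Ppargc1a*, it was 0.35 in IIx and 0.45 in IIa. Both IIa values lay below the pooled one, and cluster 0 held 35.6% of IIa myonuclei in the library labelled WT and 55.4% in that labelled KO. The other genes lay closer to the median of all genes. *Foxo3* had 213 and 229 CPM (0.10), *Cblb* 524 and 486 (-0.11) and *Fbxo30* 48.0 and 43.2 (-0.15). For *Cblb* the near-equal sums covered a ratio of 0.32 in IIb (interval 0.18 to 0.47) and of -0.41 in IIx (-0.49 to -0.32). *Fbxo21*, with 120 and 66 UMIs, and *Foxo4*, with 35 and 31, were under the 200 UMIs set for calls, with log2 ratios of -0.99 (interval -1.44 to -0.54) and -0.30 (-1.05 to 0.44).

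Of the 8 genes, 0 differed by 2-fold or more in either direction, where 3.1% of the 6976 genes were at least 2-fold higher and 2.69% at least 2-fold lower in the library labelled KO, and the median of the 8 was 0.06. Genes of handling stress and activity differed between the same sums. The 8 genes of that list summed over myonuclei to 89.7 CPM in the library labelled WT and 165 in that labelled KO, and all 8 were higher in the latter. In IIb myonuclei the sums were 98.1 and 204 CPM, in IIx 85.1 and 158, and in IIa 90.3 and 82.0. The 4 with enough UMIs were *Atf3* (1.80), *Junb* (0.74), *Fos* (0.70) and *Jun* (0.32). Their part in the ratios of the ligase genes was not tested. Of the marker lists of other cell types, the 7 genes of pericytes or smooth muscle had the highest sum in myonuclei, 292 and 246 CPM, and their part was not tested either. The sums of the other lists of non-muscle or stem cell markers ran up to 28.8 CPM, that of the 6 markers of fibro-adipogenic progenitors (FAP) in the library labelled WT.

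Per nucleus, the *Fbxo32* difference was a larger share of nuclei without a UMI. After thinning each myonucleus to 1000 UMIs, which left out 26 and 77 shallower ones, 74.97% of myonuclei in the library labelled WT (Clopper-Pearson interval 73.2 to 76.7) and 55.6% in that labelled KO (53.8 to 57.3) had a *Fbxo32* UMI. Before thinning the shares were 89.3% and 72.3%, at median depths of 3127 and 2706 UMIs. Endothelial nuclei, which should lack the gene, had shares of 1.31% and 6.14% after thinning, at median depths of 1391 and 1754. In IIb myonuclei the share was 85.9% in the library labelled WT and 57.7% in that labelled KO, in IIx 73.0% and 52.4%, and in IIa 45.5% and 37.6%. For *Trim63* the shares over all myonuclei were 73.9% and 68.3%, against 7.19% and 4.39% in endothelial nuclei, and 88.0% and 84.7% before thinning.

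*Trim63* was spread less evenly over the nuclei of the library labelled KO. The variance over the mean of its UMIs at 1000 per nucleus was 3.99 in the library labelled WT and 5.80 in that labelled KO, and the 10% of nuclei with the most UMIs held 36.2% and 42.7% of them. For *Fbxo32* the same ratio was 2.48 and 3.53, and those 10% held 32.1% and 44.8%. Of the thinned IIb myonuclei, 12.4% of 695 in the library labelled WT and 7.58% of 594 in that labelled KO had 10 or more *Trim63* UMIs, and 13.1% and 26.3% had 0. Among myonuclei without a main *Myh* gene the share with 10 or more went the other way, 16.0% and 23.6%. The largest number in 1 nucleus was 23 and 35.

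**Figure D4:**
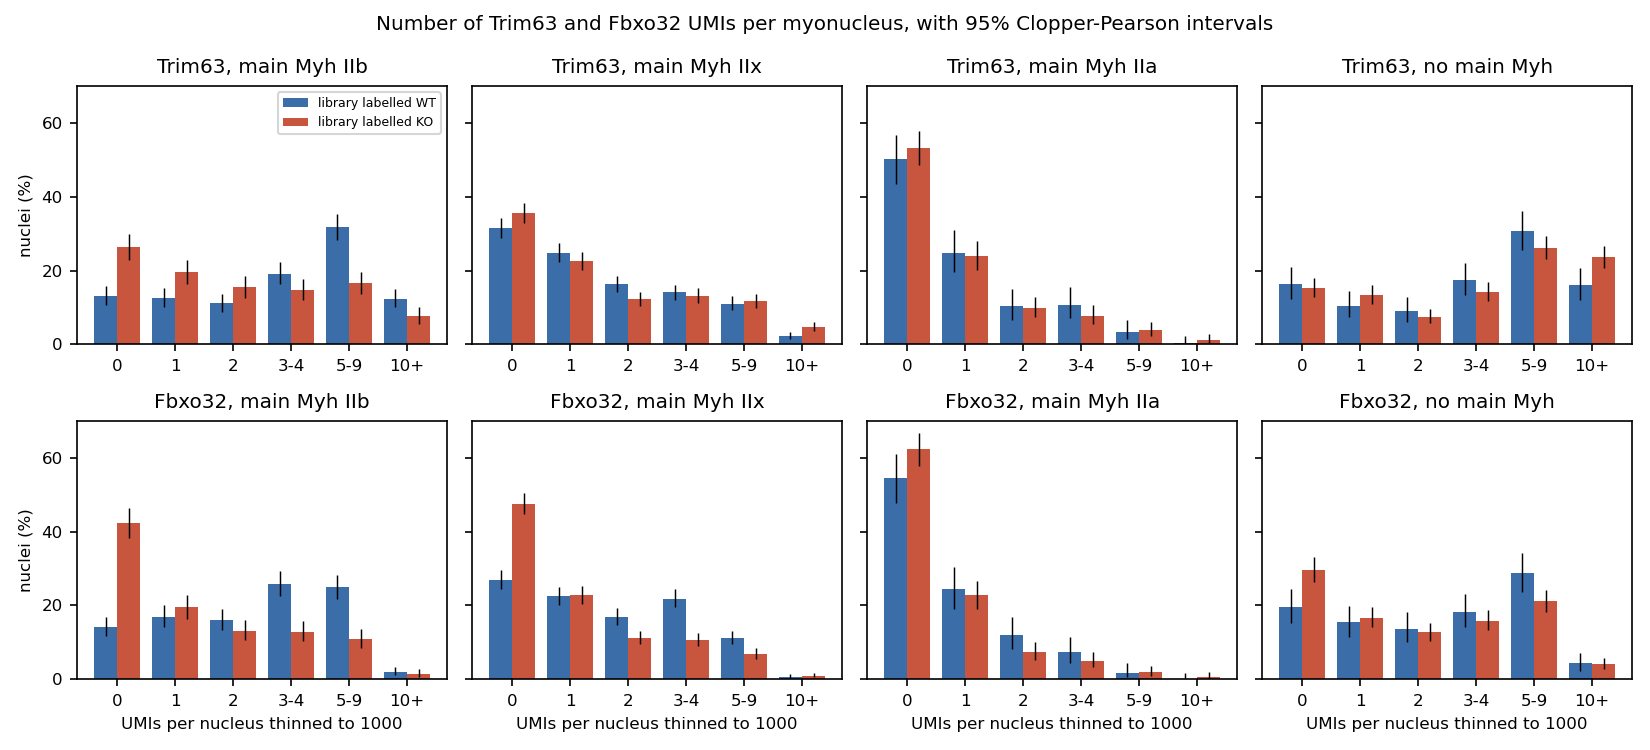
Percent of myonuclei (vertical axes) by their number of *Trim63* (top) or *Fbxo32* (bottom) UMIs after thinning to 1000 UMIs (horizontal axes), in each main *Myh* group, for the library labelled WT (blue) and that labelled KO (red), with 95% Clopper-Pearson intervals. In IIb and IIx myonuclei the share with 0 *Fbxo32* UMIs is higher in the library labelled KO, 42.3% against 14.1% in IIb.

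Nuclei with a UMI of one of these ligase genes more often had one of the other. In the library labelled WT, 81.0% of the 1760 myonuclei with a *Trim63* UMI also had a *Fbxo32* UMI, and 57.8% of the 621 without one. In the library labelled KO the shares were 63.4% of 2057 and 38.7% of 954. The gap was widest among myonuclei without a main *Myh* gene, 87.1% against 46.0% and 76.5% against 35.7%, where Spearman's rho over nuclei of one library was 0.50 and 0.49. It was smaller in IIa myonuclei, with a rho of 0.17 and 0.22. For *Foxo1* and *Fbxo32* rho lay between 0.11 and 0.23 in all groups. In IIa myonuclei of the library labelled KO, 50.3% of the nuclei with a *Foxo1* UMI had a *Fbxo32* UMI, against 28.5% of those without. Nuclei of a library share its preparation and mice, so these shares and correlations are descriptions.

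Across the classes of nuclei, *Trim63*, *Fbxo32* and *Fbxo31* were higher in myonuclei than in each of the 6 non-muscle classes in both libraries. The level of *Trim63* in FAP, endothelial, muscle stem cell (MuSC), pericyte or smooth muscle and macrophage nuclei was 1.76% to 4.75% of that in myonuclei, and that of *Fbxo32* 2.12% to 8.16%. The background of free RNA was taken here as the median level of 10 myonuclear markers in these classes. It was 2.44% to 10.96% of their myonuclear level, and the ranges of both ligase genes overlapped it. In 2 of these classes *Fbxo32* nevertheless lay above the marker share of the class itself in both libraries. These were FAP nuclei (83.9 and 119 CPM on 92 and 85 UMIs, marker share 2.44% and 3.81%) and pericyte or smooth muscle nuclei (112 and 134 CPM, marker share 2.65% and 5.75%). With classes set by marker UMIs alone the FAP level was 58.3 and 69.4 CPM. In MuSC nuclei both ligase genes lay below the marker share of that class, 9.32% and 10.96%. Tenocyte nuclei held more, 12.2% and 15.1% for *Trim63* and 13.5% and 23.5% for *Fbxo32*, where the marker share was 8.57% and 8.92%, on 61 and 69 *Trim63* UMIs and 57 and 58 *Fbxo32* UMIs. With classes set by marker UMIs alone the levels in tenocyte nuclei were lower, with 25.2 and 50.7 CPM of *Trim63* and 37.8 and 63.4 of *Fbxo32*, where the clusters gave 364 and 457 CPM and 340 and 384. *Fbxo31* reached 42.6% and 52.9% of its myonuclear level in FAP nuclei (57.4 and 96.6 CPM) and had 4 and 1 UMIs in endothelial nuclei.

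The FoxO factors were not confined to muscle fibres. *Foxo3* was higher in MuSC nuclei (587 and 633 CPM), tenocyte nuclei (513 and 543) and FAP nuclei (473 and 508) than in myonuclei (213 and 229), which is 276% and 277% of the myonuclear level in MuSC nuclei. With classes set by marker UMIs alone its level in MuSC nuclei was 513 and 388 CPM, and tenocyte nuclei were highest with 694 and 824 CPM, against 220 and 237 in myonuclei. *Foxo1* reached 98.6% and 79.8% of its myonuclear level in MuSC nuclei (656 and 612 CPM) and was low in pericyte or smooth muscle nuclei (74.5 and 145) and macrophage nuclei (111 and 162). In tenocyte nuclei it stood at 370 CPM on 62 UMIs and 742 CPM on 112. *Cblb* was highest in FAP nuclei (863 and 925 CPM) and held 473 and 802 CPM in macrophage nuclei, where CBL-B is known as a brake on immune signalling. *Klf15* had 0 UMIs in macrophage nuclei of both libraries, where 3 UMIs would equal 16.7 and 27.0 CPM, against 15.5 and 23.8 CPM in FAP nuclei. With a nucleus called a myonucleus by its marker UMIs alone, *Foxo1* and *Klf15* were no longer highest in myonuclei in both libraries.

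**Figure D5:**
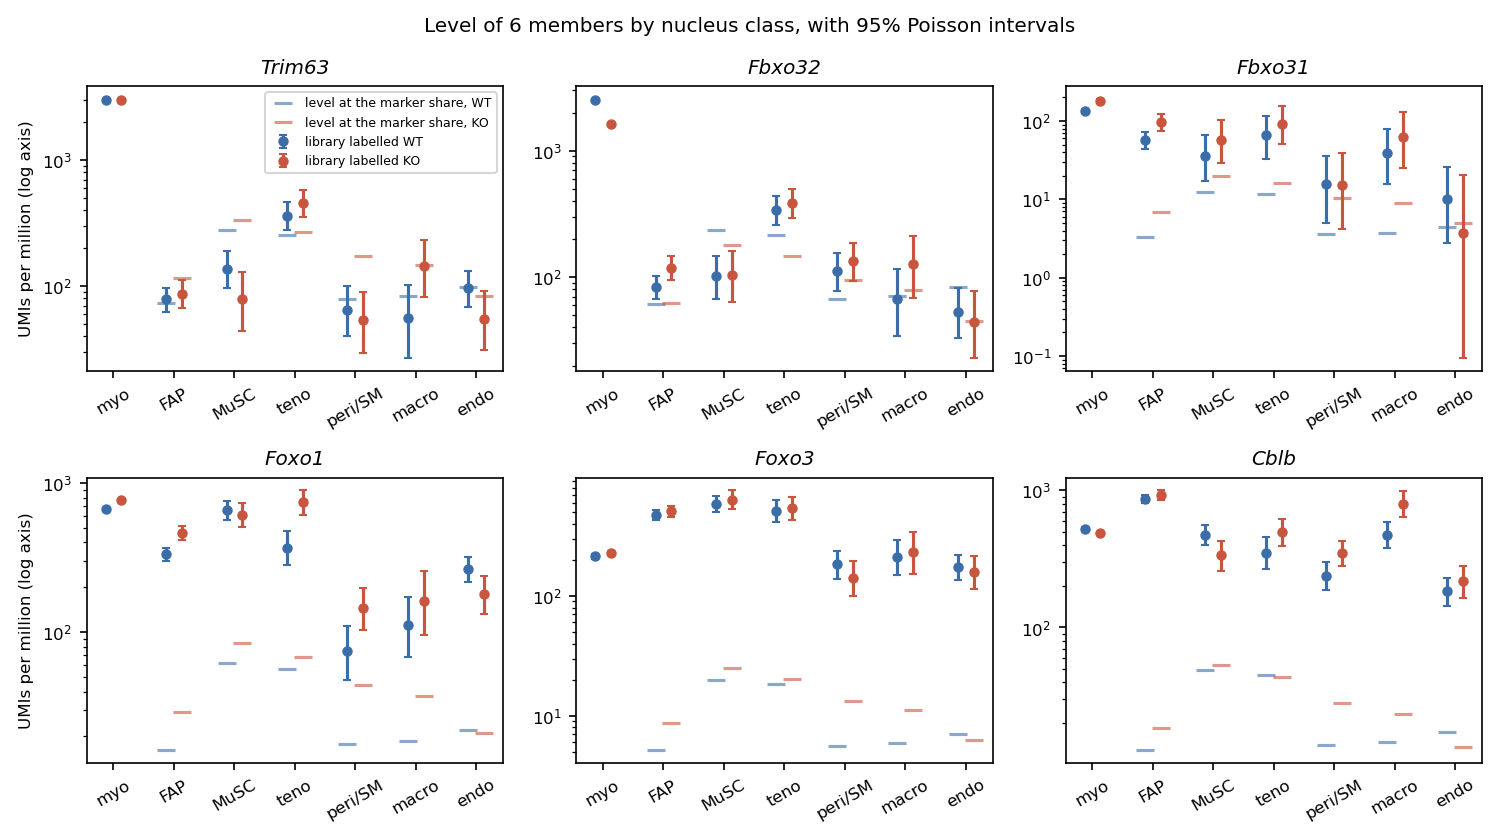
Level in CPM (vertical log axes) of *Trim63*, *Fbxo32*, *Fbxo31*, *Foxo1*, *Foxo3* and *Cblb* in myonuclei and 6 non-muscle classes, for the library labelled WT (blue) and that labelled KO (red), with 95% Poisson intervals. Dashes mark the level at the median share of the myonuclear markers in that class. Outside myonuclei *Trim63* and *Fbxo32* lie closer to the dashes than *Foxo3* and *Cblb*, which lie far above them. *Trim63* and *Fbxo32* lie above the dashes in tenocyte nuclei and below them in MuSC nuclei. *Fbxo32* also lies above them in FAP and pericyte or smooth muscle nuclei.

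By the correlation of log2(CPM + 10) over 20 profiles, the fibre types and classes of both libraries, the gene most like *Trim63* among 8642 was *Fbxo32* (Pearson's r = 0.98) and the gene most like *Fbxo32* was *Trim63*. The next for *Trim63* were *Trim54* (0.98), which encodes the related MuRF3, and *Klhl38* (0.97), and for *Fbxo32* they were *Klhl38* (0.97) and *Gm12224* (0.97). *Foxo1* was most like *9330159F19Rik*, *Eya4* and *Dcaf8* (0.88 to 0.89), *Foxo3* most like *Tnrc6a*, *Loxl1* and *Pcdh9* (0.91 to 0.92), and *Klf15* most like *Cpeb3*, *Krba1* and *Usp13* (0.92 to 0.94). *Fbxo31* was most like *Klhl33* (0.92), and *Fbxo30* most like *Cry2*, *Msrb3* and *Kank1* (0.87 to 0.90). The values were lower for *Cblb* (*Ramp1*, *Ibtk* and *Dnajc25*, 0.79 to 0.83), *Fbxo21* (*Ndufaf2*, *Il1rap* and *Jade1*, 0.76 to 0.90) and *Foxo4* (*Slf2*, *Usp31* and *Hars2*, 0.82 to 0.85), the latter pair on few UMIs. Between members, r was 0.75 for *Foxo1* and *Trim63*, 0.71 for *Foxo1* and *Fbxo32*, and -0.11 for *Foxo3* and *Trim63*. The profiles mix fibre types with non-muscle classes, share 2 libraries and differ in depth, so these values are descriptions. Between fibre types alone *Foxo1* was not called, while *Foxo3*, like *Trim63*, was called lower in IIx and IIa than in IIb.

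The proteasome, which degrades what the ligases mark, was also highest in IIb myonuclei. Of 31 subunit genes tested, 23 were lower in IIx than in IIb and 28 lower in IIa than in IIb, and 0 were higher in either contrast, beside 7.27% and 10.7% of all genes lower. The medians were -0.67 and -1.18, where the median of all genes was 0.00 and -0.01. All 31 lay below 0 in both libraries in each of these contrasts. *Psmd1*, a base subunit of the regulatory particle, had -0.88 ± 0.13 (adjusted p = 3.34e-04) in IIx and -1.48 ± 0.14 (adjusted p = 3.48e-06) in IIa, and *Psmb6*, a catalytic subunit gene, had the lowest value (-2.78 ± 0.61, adjusted p = 0.00344) in IIa. *Psmc5*, *Psmb4* and *Psma2* did not pass the test in IIa. DESeq2 called 10 and 22 lower, and the fit without the library block 4 and 17. Between IIa and IIx, 0 passed. Between the libraries the median of the 29 subunit genes with enough UMIs was -0.29, beside -0.15 for all genes, 25 lay below 0 and 0 passed 2-fold, with ratios from -0.68 (*Psmb2*) and -0.62 (*Psmc5*) to 0.16 (*Psma6*) and 0.26 (*Psmd8*).

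Other muscle ubiquitin ligases were mixed. Of 21 tested, 2 were higher and 4 lower in IIx than in IIb, and 3 were higher and 7 lower in IIa than in IIb. Of all genes, 12.3% were higher and 7.27% lower in IIx, and 14.5% higher and 10.7% lower in IIa, so the higher counts were near those shares. DESeq2 called 2 higher and 2 lower in IIx and 2 higher and 4 lower in IIa, and the fit without the library block 0 in IIx and 2, both lower, in IIa. *Asb2*, a ligase gene of the ASB family, was higher in IIx (0.93 ± 0.19, adjusted p = 0.00417) and IIa (0.73 ± 0.19, adjusted p = 0.0145), and *Fbxo40*, which encodes a ligase for IRS1, was higher in IIa (0.70 ± 0.17, adjusted p = 0.00682). *Ubr4* was lower in both, by -0.80 ± 0.14 (adjusted p = 9.56e-04) and -1.08 ± 0.15 (adjusted p = 9.87e-05). Between the libraries their median was -0.23, 0 passed 2-fold, and the ratios ran from -0.58 (*Wwp1*) and -0.56 (*Skp1a*) to 0.50 (*Stub1*) and 0.77 (*Asb2*). Among the known substrates of the member ligases, 1 of 7 was higher and 1 lower in each contrast with IIb. These were *Mybpc1* (2.91 ± 0.31 in IIa), the slow isoform of myosin-binding protein C, and *Mybpc2* (-4.68 ± 0.22 in IIa), the fast isoform. Between the libraries 1 of the 5 with enough UMIs passed 2-fold, *Mylpf* (1.07), a fast regulatory light chain gene, beside *Irs1* (0.15), the desmin gene *Des* (-0.055) and *Mybpc1* (-0.39).

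The genes that act on FoxO factors were called in both directions between fibre types, 3 higher and 2 lower of 14 in each contrast with IIb, beside 12.3% and 7.27% of all genes in IIx and 14.5% and 10.7% in IIa. DESeq2 called 1 higher in each and 1 and 2 lower, and the fit without the library block 0 higher and 1 lower in each. *Ppargc1a*, which encodes PGC-1α, a coactivator known to restrain FoxO3, was higher in IIx (3.04 ± 0.20, adjusted p = 5.22e-07) and IIa (2.44 ± 0.19, adjusted p = 1.41e-06). *Akt1*, an AKT kinase gene, was also higher (1.08 ± 0.30 and 1.22 ± 0.35). Between the libraries, 2 of 14 were at least 2-fold higher in that labelled KO, *Ppargc1a* (675 and 2176 CPM, log2 1.69) and *Akt1* (1.26 on 78 and 203 UMIs), and 1 was lower, *Sgk1* (138 and 59.9 CPM, -1.20), an AKT-related kinase gene that glucocorticoids induce. *Prkaa2*, an AMPK subunit gene, had -0.47, and the median of the 14 was -0.15.

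FoxO targets other than ligases did not share one direction. In IIx against IIb 2 of 16 were higher and 2 lower, and in IIa 2 were higher and 4 lower, beside 12.3% and 7.27% of all genes in IIx and 14.5% and 10.7% in IIa. The fit without the library block called 0 higher and 1 lower in each. In the fit with it, *Depp1* was lowest (-2.02 ± 0.33 and -3.53 ± 0.54) and the mitophagy receptor gene *Bnip3* was lower in both (-0.83 ± 0.19 and -0.94 ± 0.20). Between the libraries, 2 of 14 were at least 2-fold higher, *Cdkn1a* (1.34), a cell cycle inhibitor gene, and *Eif4ebp1* (1.32), a repressor of translation, and 1 was lower, *Irs2* (161 and 65.1 CPM, -1.31), the insulin receptor substrate gene. *Bnip3* stood just inside the 2-fold limit (-0.99), and the median of the 14 was 0.06.

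The glucocorticoid receptor gene *Nr3c1* was lower in IIx (-0.57 ± 0.14, adjusted p = 0.00876) and IIa (-0.94 ± 0.15, adjusted p = 2.47e-04) than in IIb. Of the 10 genes of its list, 0 were higher in either contrast, 3 were lower in IIx and 4 in IIa, beside 7.27% and 10.7% of all genes, among them *Fkbp5* in IIa (-0.74 ± 0.16, adjusted p = 0.00396). DESeq2 called 1 and 5 lower, and the fit without the library block 0 and 1. Between the libraries the metallothionein genes *Mt2* (1.83) and *Mt1* (1.38) were at least 2-fold higher and *Tsc22d3*, which encodes the glucocorticoid-induced GILZ, was lower (343 and 132 CPM, -1.38), while the clock gene *Per1* had -0.43 and the median was 0.21. Of 4 KLF15 targets in amino acid metabolism tested, 3 were higher in IIx and 2 in IIa than in IIb, beside 12.3% and 14.5% of all genes, and 0 were lower. *Gpt*, alanine aminotransferase, was higher in IIx (1.89 ± 0.34) and IIa (2.23 ± 0.37), *Alas1* in both and *Prodh* in IIx, while *Bcat2* passed in neither (0.034 ± 0.21 and 0.31 ± 0.24). DESeq2 called 1 and 1 higher, and the fit without the library block 0 and 1. Between the libraries 0 of the 4 passed 2-fold, and all 4 ratios were below 0, -0.66 for *Prodh*, -0.44 for *Bcat2*, -0.42 for *Alas1* and -0.38 for *Gpt*. Between IIa and IIx, 0 genes of the regulator, target, glucocorticoid, KLF15, ligase and substrate lists were called. Of the 5 stress genes tested, 1 was higher and 2 lower in IIx than in IIb, 1 higher and 3 lower in IIa than in IIb, and 1 lower in IIa than in IIx, and without the library block 0 were called in both contrasts with IIb.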

How the data were processed

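The authors sequenced sorted nuclei with a 10x kit (a 3′ v3.1 kit per the methods, Multiome per the labels) and deposited raw UMI counts for each gene in each called barcode. The submitters' processing notes name Cell Ranger 7.0.0, Seurat 5.0.3 and mm10. Whether intronic reads were counted is not given in the sources used here.

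Nuclei were kept with 200 to 5000 genes and up to 5% mitochondrial UMIs, and the highest Scrublet scores (scanpy 1.11.5) were removed as doublets at 0.8% per 1000 barcodes, 115 and 134 nuclei. Seurat 5.3.0 in R 4.3.3 clustered the integrated libraries at resolution 0.5 without the 10 members and 375 other genes. Those 375 had at least 200 UMIs and differed at least 2-fold between the libraries in myonuclei called by marker UMIs. The clusters were therefore built without the genes that differed most between the libraries in myonuclei. Clusters were named from marker lists by a rule set after the clusters were seen, and 4 stayed unnamed. CPM is UMIs per 1000000 UMIs in a class of 1 library. Ratios carry exact 95% intervals for counting error, and at least 2-fold with 200 UMIs in both libraries together was called. Fibre types were compared by edgeR 4.0.16 (quasi-likelihood, TMM, filterByExpr, library as a block) on UMIs summed per library and fibre type, with Benjamini-Hochberg adjustment over 9697 genes and a threshold of 0.05. Fibre types of a library come from the same 2 mice. The spread rests on 2 libraries and 2 residual degrees of freedom, moderated over genes. These libraries carry different genotype labels, so the spread is that of the fibre type step between labels, not between animals of one genotype. Both the ratios and the edgeR fit were tested on simulated data. In the edgeR fit, of genes changed by a log2 of 1 and 2 in IIx against IIb, 60.9% and 98.0% were called.

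The paper's DoubletFinder, Harmony and Wilcoxon test over nuclei were not used. All 10 members are described. For each, the 3 genes with the highest correlation were found, and from each list the 2 highest and 2 lowest ratios. A few genes that these rules or lists name are not reported here. Members and lists were chosen with earlier results of these data known. Alternatives were DESeq2 1.42.0, other scaling, other filters and other weights, and the equal weight of clusters was added after seeing the data. Python 3.11.15, numpy 2.4.6, scipy 1.17.1 and pandas 2.3.3 were used. Myonuclei held 8832129 and 9628232 UMIs in the libraries labelled WT and KO.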

Additional observations from a re-analysis of the deposited data

Results flagged for a closer look

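For 2 of the 10 genes the library labelled KO was higher than that labelled WT in one fibre type and lower in another, with intervals that leave out 0. *Trim63* had a log2 ratio of -0.50 in IIb, 0.24 in IIx and 0.13 in IIa myonuclei. *Cblb* had 0.32 in IIb and -0.41 in IIx. With 1 library per genotype the difference between fibre types was not tested. Within clusters, *Trim63* ran from -0.59 to 0.69, and both IIa clusters with enough nuclei had ratios below 0 (-0.35 and -0.46). *Cblb* ran from -0.69 in IIx myonuclei of cluster 0 to 0.72 in IIb myonuclei of cluster 5.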

How the results depend on the processing

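The median log2 ratio of the 8 members between libraries (0.06) was 0.18 with TMM factors, 0.19 with median-of-ratios factors, 0.14 as a mean over nuclei, 0.13 after thinning, -0.072 in myonuclei with a main *Myh* gene only and 0.20 with clusters weighted equally, an alternative chosen after seeing the data. Under all 12 alternatives 0 members passed 2-fold. *Fbxo32* kept its sign in 12 of 12 (-0.90 to -0.42), *Trim63* in 10 (-0.27 to 0.21) and *Cblb* in 10 (-0.12 to 0.02). Members called between fibre types (6 in IIx and 6 in IIa against IIb, and 2 in IIa against IIx) numbered 3, 2 and 2 with DESeq2, 3, 4 and 1 with at least 3 *Myh* UMIs and 75% from the main gene, and 0, 2 and 0 with no replicate block. Over all genes the calls were 1897, 2443 and 144, with DESeq2 887, 1417 and 68, without the block 279, 895 and 2, and without a filter on low counts 2157, 2763 and 410. With either library left out no residual degrees of freedom remained, so there was no test. In that case 25 of 27 differences moved by less than the spread, but the spread was taken from the same 2 libraries. This outcome was nearly fixed in advance and does not measure robustness. With myonuclei called by marker UMIs, 3 members in place of 5 were highest in myonuclei. No paired analysis was possible because each genotype is 1 library. Counting depth limits *Foxo4* and *Fbxo21*.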

Other observations

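Myotendinous junction myonuclei, a cluster named from *Col22a1*, *Ankrd1* and *Adamts20* had the lowest *Trim63* and *Fbxo32* ratios among the 6 larger clusters of myonuclei, on 25 nuclei (WT label) and 33 (KO label). *Trim63* stood at 2257 and 980 CPM there (247 and 118 UMIs, log2 ratio -1.20, interval -1.53 to -0.88), and *Fbxo32* at 1097 and 257 CPM (120 and 31 UMIs, -2.09, interval -2.71 to -1.51). *Foxo1* stood at 429 and 274 CPM on 47 and 33 UMIs, with an interval that holds 0 (-1.34 to 0.02). The smallest cluster of myonuclei, named neuromuscular junction, held 15 and 8 nuclei. Its *Fbxo32* ratio was lower still, -2.25 (33 and 3 UMIs, interval -4.60 to -0.57), and its *Trim63* ratio was -0.04 (31 and 13 UMIs, interval -1.10 to 0.93). With 1 library per genotype these differences were not tested.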
